A study of Mus musculus with 29 samples.

Results

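The cytosolic ribosomal protein genes were taken from RNA-seq count tables of fibroblast-like cells of the mouse common bile duct. The members are the table rows whose symbols follow the naming pattern of the small-subunit genes (Rps), the large-subunit genes (Rpl), the stalk genes Rplp0 to Rplp2 and Rpsa, without the Rps6k kinases. This pattern took 94 of the 55401 rows. Of these, 77 are core ribosomal proteins, 31 of the small and 46 of the large subunit. A further 15 are paralogues or near copies, such as Rps27l and Rpl22l1, and 2 (Rps19bp1 and Rps23rg1) share the spelling only and encode no ribosomal protein. Fau and Rack1, which also give ribosomal proteins, are not matched by the pattern and were counted in other lists.

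The 29 libraries were each made from about 1000 sorted cells of 1 mouse, labelled as peribiliary mesenchymal cells. All mice carried a tamoxifen-inducible Cre driven by Gli1 or by Pdgfra and a Rosa26 lox-STOP-lox tdTomato reporter, which marks cells in which the Cre has acted. The Gli1:CreERT2 mice were taken 4 days after bile duct ligation (3 libraries, here BDL) or uninjured (3 libraries), with no sham-operated group among the samples analysed here. The Pdgfra:CreERT2 mice carried floxed Ctnnb1, the β-catenin gene (Ctnnb1FF, 3 libraries), both floxed Gli2 and floxed Gli3 (Gli2FFGli3FF, 4), floxed Gli2 alone (Gli2FF, 2), floxed Gli3 alone (Gli3FF, 2), floxed Smo (SmoFF, 4) or the active Smo allele SmoM2 (3), and 5 wild type libraries served all 6 of these genotypes as controls. Smo is the transducer of Hedgehog signals, and Gli2 and Gli3 are its transcription factors. The ages and sex of the mice were not used here.

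A cytosolic ribosome is built from 1 copy of most of these proteins, together with the ribosomal RNAs, in a small subunit that decodes the mRNA and a large subunit that forms peptide bonds. Most ribosomal protein mRNAs begin with a terminal oligopyrimidine (TOP) tract, a run of C and U at the 5′ end through which the kinase mTOR and the RNA-binding protein LARP1 control their translation. Mammalian genomes hold many processed pseudogenes of these short, abundant mRNAs, and a read from a stretch that gene and pseudogene share has the same letters in both.

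Alignment of the coding sequences to the annotated transcripts found 975 near copies (at least 90% identity over at least 50% of the coding sequence) for 75 of the 77 core genes. Rpl8 was among those with none. The numbers ran up to 76 for Rpl7a and 75 for Rpl21, with 57 for Rpl29, 47 for Rps2, 35 for Rpl23a and 10 for Rpl34. The stretches below, from the GENCODE M21 transcripts, show how little separates the genes from the copies on which several values turn. Capitals mark the bases at which the rows of a set differ, and positions count from 1 at the A of the start codon. The first set covers coding positions 47 to 90 of Rps2, a gene on chromosome 17 (chr17:24718116-24721929, plus strand, mm10), beside its copies on chromosomes X, 8 and 5.

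Rps2: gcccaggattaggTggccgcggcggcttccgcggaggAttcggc
Rps2-ps13: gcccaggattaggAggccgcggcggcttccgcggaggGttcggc
Gm45855: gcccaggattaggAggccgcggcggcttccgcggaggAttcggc
Gm6139: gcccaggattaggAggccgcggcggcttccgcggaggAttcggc

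The second set covers positions 436 to 465 of the same 4 transcripts, where Rps2-ps13 carries 2 bases that Rps2 does not.

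Rps2: gaggttgcCactgccatCcgaggggcCatc
Rps2-ps13: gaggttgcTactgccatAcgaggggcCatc
Gm45855: gaggttgcCactgccatCcgaggggcCatc
Gm6139: gaggttgcCactgccatCcgaggggcTatc

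Rps2-ps13 is 99.2% identical to Rps2 and differs from it by T60A, A84G, T204C, G300A, C444T, C453A and T756C, with the base of Rps2 given before the position. T60A was present in 39 of the 40 copies that align there and T756C in 40 of 42. Rpl34 lies on chromosome 3 (chr3:130726831-130730398, minus strand), and its copies Rpl34-ps1 and Gm10154 lie on chromosomes 6 and 4. Rpl34-ps1 is 99.4% identical and differs only by T132C and C318G, each found in 9 of the 10 copies. The next lines give positions 121 to 145.

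Rpl34: gcacctaaatcTgcatgtggcgtgt
Rpl34-ps1: gcacctaaatcCgcatgtggcgtgt
Gm10154: gcacctaaatcCgcatgtggcgtgt

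Positions 306 to 330 hold the other difference.

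Rpl34: cgttgtgaaagtCttgaaggcacaa
Rpl34-ps1: cgttgtgaaagtGttgaaggcacaa
Gm10154: cgttgtgaaagtGttgaaggcacaa

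Among the 59 core genes with at least 3 copies of 95% identity or more, 18 had a position at which every aligned copy shared a base unlike the gene. For every core gene 2 values were therefore used throughout, the count of its own row and the sum of that row and its copies, called the family sum here.

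The libraries held 15021796 to 38301189 counts each, of which 2.37% to 50.03% lay on 1 ribosomal RNA locus that was left out of the shares given here. That share was 28.02% to 34.39% in Ctnnb1FF, 38.35% to 50.03% in Gli2FFGli3FF, 8.564% and 13.5% in Gli2FF, 24.52% and 39.12% in Gli3FF and 13.41% to 29.37% in wild type libraries. The targeted genes followed the labels in direction, with Smo at 6.81 to 9.05 CPM (scaled counts per 1e6) in SmoFF against 22.59 to 36.25 CPM in wild type, and Ctnnb1 at 37.98 to 47.9 CPM in Ctnnb1FF against 53.21 to 64.19 CPM in wild type, a difference that edgeR did not call (log2 -0.44, adjusted p = 0.108). Gli2 overlapped between single and control mice, at 12.8 and 6.914 CPM in Gli2FF against 12.75 to 20.92 CPM in wild type, and was not called (log2 -0.85, edgeR adjusted p = 0.398). Gli3 was at 14.39 and 12.34 CPM in Gli3FF against 30.76 to 44.9 CPM in wild type. The summed fibroblast markers were between 18910 and 72910 CPM in every group. Marker sums that did not overlap between a group and its controls are given beside that group's result, apart from the acinar and Schwann sums, which were at most 45.88 and 17.78 CPM in any library.

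The 5 wild type libraries differed among themselves for several members. Rpl35, a large-subunit protein near the exit tunnel, had 177.9, 177.5 and 186.4 CPM in wild type replicates 1 to 3, against 33.39 and 29.46 CPM in replicates 4 and 5. Rps12, a small-subunit protein, had 165.2, 211.5 and 171.0 CPM in replicates 1 to 3, against 39.8 and 36.04 CPM in replicates 4 and 5. For both genes replicates 1 to 3 were more than 4 times as high as replicates 4 and 5. The core genes together took 2.913% to 3.352% of non-rRNA counts in replicates 1 to 3 and 2.387% and 2.529% in replicates 4 and 5. The labels name no batch, and the description of replicate 5 also names SmoFF while its title and genotype say wild type, so every comparison below is also given against either set of controls where that matters. This split was known from earlier results of these data.

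Compared per length (TPM, which divides counts by transcript length, median over all libraries), Rplp1, an acidic stalk protein that recruits elongation factors, led the core genes at 5387 TPM. Rpl41 (3373 TPM), the smallest protein of the ribosome, Rps3 (2861) and Rps14 (2517) were also among the highest. The lowest own rows were Rpl23a (57.1 TPM), Rpl17 (75.17), Rpl30 (105.5), Rps13 (113.3) and Rpl13a (116.8). Rpl23a with its copies reached 4820 TPM, so its low value was that of the row rather than of the family. The families of the other 4 were lower, at 2040 TPM for Rpl30, 1350 for Rps13, 1270 for Rpl13a and 1134 for Rpl17. With copies included, Rps27 (9247 TPM), Rpl13 (7520) and Rps29 (6813) were highest. The row highest of all members was Rps27rt at 7087 TPM, whose coding sequence is identical to that of Rps27.

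Wild type libraries placed 1.072% to 1.506% of their non-rRNA counts on the small-subunit core genes and 1.315% to 1.846% on the large-subunit ones. Ctnnb1FF libraries were above every other group, with 2.232% to 2.439% on the small and 2.922% to 2.936% on the large subunit. Gli2FFGli3FF followed with 1.563% to 1.909% on the small subunit and 1.985% to 2.302% on the large subunit, also without overlap with wild type. Over all counts, with the rRNA locus included, this separation was lost, at 1.773% to 2.596% (median 2.095%) for all core genes in Gli2FFGli3FF against 2.067% to 2.472% (median 2.275%) in wild type, while Ctnnb1FF stayed above wild type at 3.391% to 3.772%. Gli3FF had 1.616% and 1.182% on the small and 2.13% and 1.615% on the large subunit, and overlapped wild type. Gli2FF had 0.9897% and 0.9244% on the small and 1.237% and 1.226% on the large subunit, just below the wild type range. SmoFF (0.9224% to 1.438% and 1.185% to 1.737%) and SmoM2 (0.8764% to 1.259% and 1.144% to 1.618%) overlapped wild type for both subunits. In Gli1 cells the groups overlapped as well, at 1.165% to 1.286% and 1.513% to 1.616% after ligation against 0.8904% to 1.219% and 1.221% to 1.605% in uninjured mice. In bulk libraries fewer cells of a type and less RNA per cell cannot be told apart, and shares of counts do not give the amount of RNA per cell.

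**Figure D1:**
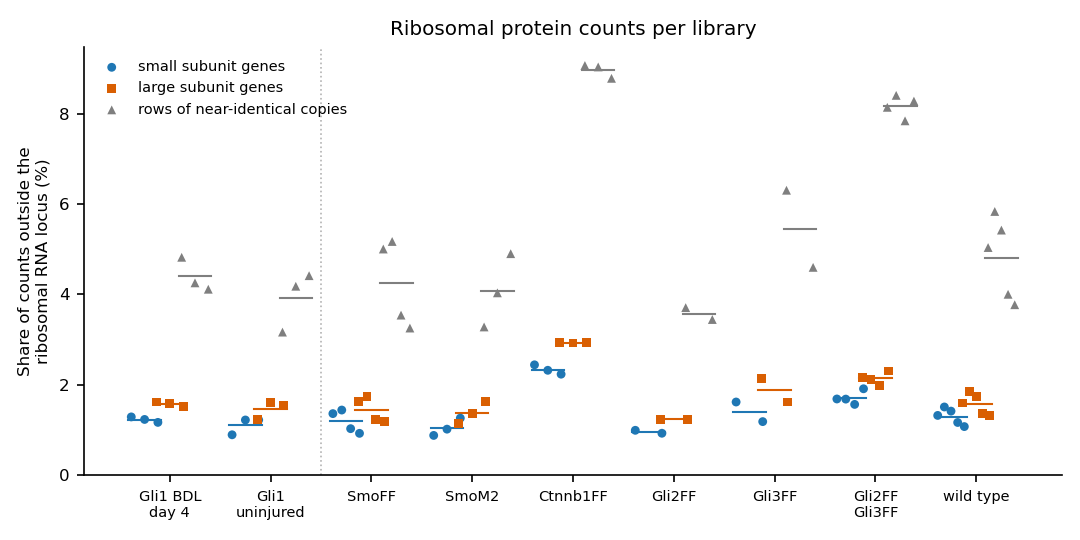
Percent of counts outside the ribosomal RNA locus on the small-subunit core genes, the large-subunit core genes and their copies, 1 point per library by group, with lines at group means. For each of the 3 quantities the 3 Ctnnb1FF and the 4 Gli2FFGli3FF libraries lie above all wild type libraries.

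The copies held more counts than the genes. They took 8.78% to 9.064% of non-rRNA counts in Ctnnb1FF, 7.839% to 8.403% in Gli2FFGli3FF and 3.769% to 5.833% in wild type libraries. Core genes and copies together reached 13.95% to 14.44% in Ctnnb1FF and 11.39% to 12.49% in Gli2FFGli3FF, against 6.156% to 9.185% in wild type. The median core gene had 20.85% to 24.34% of its family sum on its own row in Gli2FFGli3FF libraries, below the 26.11% to 29.72% of wild type libraries.

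The question of each genotype comparison was which members differ from wild type. A gene was called changed at a Benjamini-Hochberg adjusted p under 0.05 in edgeR's quasi-likelihood test over all genes, and log2 changes are given ± SE. Of the 94 members, 93 passed the filter on low counts in the Pdgfra libraries (Rps12l1 had no counts) and 89 in the Gli1 libraries. The 6 genotype comparisons share the 5 wild type libraries, so a change that is common to several of them is not independent evidence. Rps2 and Rpl34 had been singled out as outliers from earlier results of these data, so a call of either is no independent result, and the counts without both are given beside those with them. The labels do not say that the mice came from separate litters or days, and p-values measure the spread between these libraries only.

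**Figure D2:**
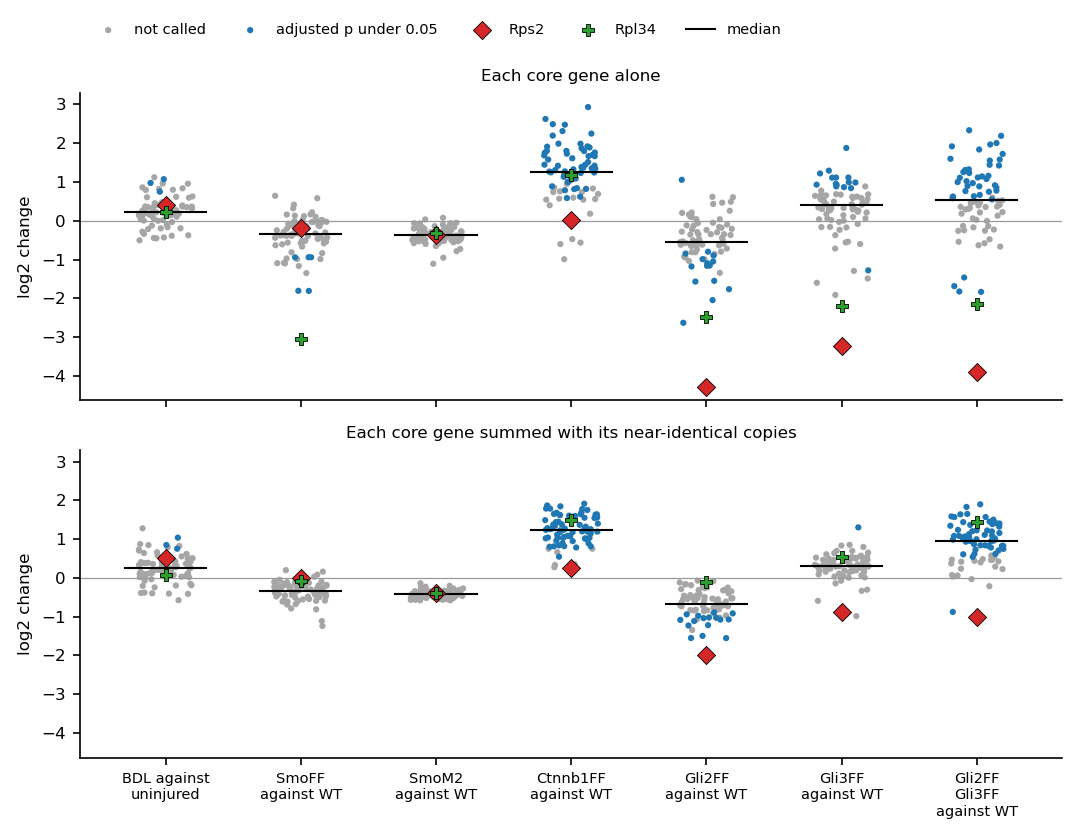
Log2 change of each core gene in the 7 comparisons, on own rows (top) and on family sums (bottom), with lines at the median and called genes in blue. The points lie mostly above 0 in Ctnnb1FF and Gli2FFGli3FF and mostly below 0 in Gli2FF, SmoFF and SmoM2, and Rps2 is the lowest own row in the 3 genotypes with floxed Gli2 or Gli3.

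The broadest difference was in Ctnnb1FF. In Ctnnb1FF cells 68 of 93 members were higher and 0 were lower than in wild type, where 19.9% of all genes tested were called and 8.04% were higher. The core genes numbered 58 of these (24 of 31 small-subunit and 34 of 46 large-subunit), the paralogues and copies 9, and Rps19bp1 was the other. Without Rps2 and Rpl34, 67 of 91 members were higher. The median log2 change was 1.25 over the small-subunit and 1.30 over the large-subunit core genes, beside -0.61 over all genes tested. On family sums 70 of 77 core genes were higher and 0 lower, with a median of 1.24. In that fit 19.0% of genes were called and 7.44% were higher. The 7 families not called were Rps2, Rps4x, Rps12, Rps18, Rps23, Rpsa and Rplp0.

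Rpl26, a large-subunit protein that also binds p53 mRNA in human cells, had 796.4, 703.3 and 816.2 CPM in Ctnnb1FF, against 116.8, 132.8, 116.8, 131.8 and 127.7 CPM in wild type. Each Ctnnb1FF library exceeded every wild type library more than 5 times over, and the log2 change was 2.62 ± 0.32 (edgeR adjusted p = 5.63e-06). On the family sum the log2 change of Rpl26 was 1.27 (edgeR adjusted p = 6.64e-04). Rpl24, a large-subunit protein at the interface with the small subunit, had 168.1, 172.7 and 166.1 CPM in Ctnnb1FF, against 31.21, 34.76, 33.54, 37.91 and 32.84 CPM in wild type. Both groups were tight and far apart, with a log2 change of 2.31 ± 0.21 (edgeR adjusted p = 2.7e-07) on the own row and 1.24 on the family sum. Rps27, a zinc-finger protein of the small subunit, had 360.7, 434.2 and 425.9 CPM in Ctnnb1FF, against 78.52, 91.74, 89.11, 55.89 and 46.92 CPM in wild type. It rose by 2.49 ± 0.25 on the log2 scale (edgeR adjusted p = 7.17e-07), and its family sum by 1.87 (edgeR adjusted p = 1.33e-05).

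Rpl23a, which sits at the exit of the peptide tunnel, had the largest own-row change in Ctnnb1FF. It was at 80.12, 80.04 and 69.55 CPM in Ctnnb1FF against 7.567 to 12.5 CPM in wild type, a log2 change of 2.93 ± 0.26 (edgeR adjusted p = 2.1e-07). The row was only 0.41% to 3.28% of its family sum in all 29 libraries, and the family sum differed by 1.37 (edgeR adjusted p = 3.73e-04). The own row alone therefore gave more than double the family's log2 change. Rpl35a (2.48 ± 0.22 on its own row, 1.62 on its family sum) also had the smaller change on the family sum.

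Rpl8, a core gene without near copies that lies next to the peptidyl transferase centre, allows the change to be read without that split. It had 1503, 1658 and 1402 CPM in Ctnnb1FF, against 883.6, 963.3, 869.7, 837.0 and 770.0 CPM in wild type. The groups did not overlap, and Rpl8 rose by 0.82 ± 0.16 on the log2 scale (edgeR adjusted p = 0.00117).

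Rpl5 and Rpl11, which with 5S rRNA bind and inhibit Mdm2 when ribosome assembly is disturbed, also rose, by 1.89 ± 0.21 and 1.99 ± 0.18 on the log2 scale. Rpl5 had 537.4, 679.7 and 669.2 CPM in Ctnnb1FF, against 153.2 to 184.5 CPM in wild type. The stalk proteins rose by unequal amounts, Rplp2 by 1.68, Rplp1 by 1.19 and their anchor Rplp0 by 0.79 (edgeR adjusted p = 0.0113), although the Rplp0 family sum was not called. Rps6, the substrate of S6 kinase, rose by 1.25 and Rps27a, made as a fusion with ubiquitin, by 1.67. Rpsa, which doubles as a laminin receptor, had 436.5, 429.4 and 395.0 CPM in Ctnnb1FF against 210.9 to 357.9 CPM in wild type (0.62 ± 0.22, edgeR adjusted p = 0.0477), and its family sum was not called.

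The lowest core genes in Ctnnb1FF were Rpl29 (-0.99, edgeR adjusted p = 0.123) and Rps12 (-0.60, edgeR adjusted p = 0.319), neither of them called. Rpl29 turned round once its 57 copies were summed in, at 998.9, 1078 and 1105 CPM in Ctnnb1FF against 359.0 to 588.8 CPM in wild type (log2 1.20, edgeR adjusted p = 3.37e-04). Its copy Gm8210, on chromosome 1, differs from Rpl29 (chromosome 9) by C72A, C300T and T423C, and positions 61 to 85 show the first of these.

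Rpl29: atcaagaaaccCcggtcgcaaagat
Gm8210: atcaagaaaccAcggtcgcaaagat

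Several library properties moved with the Ctnnb1FF group. Its libraries had 15892 to 17726 detected genes against 21127 to 24483 in wild type, and 10.09% to 11.59% mitochondrial counts against 4.98% to 9.06%. The sum of 5 mesothelial markers was 17.56 to 55.47 CPM in Ctnnb1FF against 114.5 to 221.6 CPM in wild type, with 3 of the 5 called lower and 0 higher. Of 1193 other protein-coding genes of at most 1000 bases that were tested, 436 were higher and 42 lower, with a median log2 change of 0.81. Their part in the result was not tested. With the ribosomal RNA share as a covariate, chosen after seeing the data, 62 members were higher and 0 lower. Against wild type replicates 1 to 3 the counts were 57 higher and 3 lower, and against replicates 4 and 5 they were 84 higher and 0 lower. Over all genes these fits called 3777 of 24383 (covariate), 3430 of 24043 (replicates 1 to 3) and 3450 of 24077 (replicates 4 and 5).

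The promoters below were picked for a C-led pyrimidine run at the listed start, because most ribosomal protein mRNAs begin with a TOP tract. They belong to the core genes with such a run that rose most in Ctnnb1FF. Rpl23a, Rpl26, Rpl35a and Rpl24, also among the largest rises, had no such run or no listed promoter. The windows run from 30 bases before to 15 from the listed start, from RefSeq on GRCm38.p6, and capitals mark the run: Rps27 at chr3:90213634-90213678, Rps15a at chr7:118116133-118116177 and Rps10 at chr17:27635230-27635274, all on the minus strand.

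Rps27: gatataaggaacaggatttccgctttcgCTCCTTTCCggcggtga
Rps15a: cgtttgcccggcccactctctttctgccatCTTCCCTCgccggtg
Rps10: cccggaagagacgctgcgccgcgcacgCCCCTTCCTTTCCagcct

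A run of at least 6 pyrimidines that begins with C within 5 bases of the start was found in 24 of the 57 core promoters listed (42.1%) and in 2759 of 27025 promoters of all genes (10.2%). CCGGAAG, the letters bound by ETS factors, occurred on either strand from 100 bases before to 20 after the start in 28.1% of core promoters and 6.0% of all promoters. TATAAA occurred in 3.5% of core and 6.5% of all promoters, and AAGATGGCG, the letters of YY1, in 1.8% and 0.5%.

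In Gli2FFGli3FF cells 40 of 93 members were higher and 7 lower than in wild type, where 17.2% of all genes tested were called, 7.60% higher and 9.56% lower. The core genes numbered 36 of the higher (15 small-subunit, 21 large-subunit) and 6 of the lower. Without Rps2 and Rpl34, 40 of 91 members were higher and 5 lower. The median log2 change over the core genes was 0.53, beside -0.35 over all genes tested. On family sums 56 core genes were higher and 2 lower (55 and 1 without Rps2 and Rpl34), with a median of 0.95, beside 15.5% of all genes called, 6.61% higher and 8.94% lower.

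Rpl39, a small protein of the exit tunnel, rose most among the core genes. It had 1268, 1207, 1292 and 1134 CPM in Gli2FFGli3FF, against 219.0 to 267.5 CPM in wild type, a log2 change of 2.33 ± 0.22 (edgeR adjusted p = 2.17e-07). Rpl41 had 1882, 2041, 1798 and 1643 CPM in Gli2FFGli3FF, against 407.9 to 504.4 CPM in wild type, a log2 change of 1.97 (edgeR adjusted p = 4.3e-07). The groups of both genes lay more than 3 times apart, and both kept most of the change on their family sums (1.83 and 1.65). Rps10, at the small-subunit head, had 138.8, 135.2, 132.0 and 142.6 CPM in Gli2FFGli3FF, against 22.45, 26.71, 21.86, 55.54 and 44.29 CPM in wild type. Its log2 change of 2.0 on its own row was 0.99 on the family sum.

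The core genes called lower on their own rows, beside Rps2 and Rpl34, were Rps12, Rps18, Rpl30 and Rpl35, and of these Rps18 alone was called lower on family sums. Rps18, at the head of the small subunit, had 51.09, 41.38, 40.54 and 81.28 CPM in Gli2FFGli3FF, against 235.2, 249.1, 227.8, 126.9 and 116.0 CPM in wild type. All 4 libraries lay below the lowest wild type library (log2 -1.83, edgeR adjusted p = 5.73e-05), and the family sum gave -0.88 (edgeR adjusted p = 0.0224). That family sum was 159.9 to 225.4 CPM in Gli2FFGli3FF, and wild type replicates 4 and 5, at 219.9 and 192.3 CPM, lay within its range. Rpl30, which also regulates its own splicing in yeast, had 7.762, 12.85, 8.476 and 19.65 CPM in Gli2FFGli3FF, against 49.2, 56.59, 54.33, 16.92 and 19.32 CPM in wild type. Here wild type replicates 4 and 5 lay close to the Gli2FFGli3FF libraries, and the family sum was higher in Gli2FFGli3FF (log2 1.09, edgeR adjusted p = 0.0049). The other member called lower was Rps23rg1, with 0 counts in all 4 Gli2FFGli3FF libraries and 39, 38, 18, 0 and 0 counts in wild type, so the call rested on replicates 1 to 3.

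Mitochondrial counts were 11.53% to 15.66% in Gli2FFGli3FF against 4.98% to 9.06% in wild type, and 17508 to 20055 genes were detected against 21127 to 24483. The sum of 5 smooth muscle and pericyte markers was 173.3 to 392.4 CPM in Gli2FFGli3FF against 53.11 to 79.22 CPM in wild type, with 2 of the 5 called higher and 0 lower. The part of these in the result was not tested. With the ribosomal RNA share as a covariate, chosen after seeing the data, 21 members were higher and 8 lower and the core median was 0.25. Against wild type replicates 1 to 3 there were 28 higher and 11 lower, and against replicates 4 and 5 there were 44 higher and 3 lower, with a core median of 0.91. Over all genes these fits called 2062 of 24383 (covariate), 3036 of 24043 (replicates 1 to 3) and 2213 of 24077 (replicates 4 and 5).

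In Gli2FF cells, which went the other way, 1 of 93 members was higher and 20 were lower than in wild type, where 5.84% of all genes tested were called, 2.58% higher and 3.26% lower. The core genes numbered 16 of those lower (5 small-subunit, 11 large-subunit), with a core median of -0.55 beside 0.12 over all genes. Without Rps2 and Rpl34, 1 of 91 members was higher and 18 lower. On family sums 17 core genes were lower and 0 higher (16 and 0 without Rps2 and Rpl34), all 77 fitted changes were below 0, and 5.05% of all genes were called, 2.05% higher and 3.01% lower. Rpl8 had 391.7 and 477.7 CPM in Gli2FF, against 770.0 to 963.3 CPM in wild type, and fell by 0.99 on the log2 scale (edgeR adjusted p = 0.00454). Both libraries lay below every wild type library, and this gene has no near copy. Rps18 had 61.22 and 51.15 CPM in Gli2FF, against 116.0 to 249.1 CPM in wild type (log2 -1.77, edgeR adjusted p = 0.00399, family sum -1.55).

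Rpl35, a large subunit protein whose level also split the wild type libraries, had 20.25 and 18.79 CPM in Gli2FF, below wild type replicates 4 and 5 (33.39 and 29.46 CPM) and far below replicates 1 to 3 (177.5 to 186.4 CPM). Its log2 change was -2.63 (edgeR adjusted p = 0.0117) on the own row and -1.50 on the family sum. Rpl23a was the only member called higher, at 20.3 and 21.44 CPM in Gli2FF against 7.567 to 12.5 CPM in wild type (log2 1.06, edgeR adjusted p = 0.0336), but its family sum was 639.1 and 634.5 CPM in Gli2FF against 689.8 to 1217 CPM in wild type (-0.62, edgeR adjusted p = 0.256). The number of members called depended on single libraries, with 2 called without Gli2FF replicate 1 and 5 without replicate 2, where the remaining library is assumed to vary like those of other groups, and 12 called without any 1 of wild type replicates 1 to 3. Against wild type replicates 1 to 3, 36 members were called, and against replicates 4 and 5, 2 were. With the ribosomal RNA share as a covariate, chosen after seeing the data, 1 was higher and 5 were lower, and the core median was -0.26. Over all genes these fits called 1887 of 24043 (replicates 1 to 3), 200 of 24077 (replicates 4 and 5) and 489 of 24383 (covariate). The Gli2FF libraries had 25279 and 28028 detected genes against 21127 to 24483 in wild type, and the sum of 8 fibroblast markers was 22120 and 22810 CPM against 27070 to 37620 CPM, with 2 of the 8 called lower and 0 higher. The part of these in the result was not tested.

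In Gli3FF cells 15 of 93 members were higher and 3 lower than in wild type, where 4.45% of all genes tested were called, 2.09% higher and 2.36% lower. The core genes numbered 14 of the higher. The 3 lower were Rps18 and the pair singled out earlier, Rps2 and Rpl34, without which 15 of 91 members were higher and 1 lower, and the core median was 0.41 beside -0.22 over all genes. Rpl24 (1.29, edgeR adjusted p = 0.00158), Rps10 (1.22), Rpl39 (1.11), Rpl23 (1.11), Rps27 (1.11) and Rpl23a (1.88, edgeR adjusted p = 3.16e-04) had the largest rises. The 2 libraries differed from each other, with Rpl39 at 713.3 and 340.0 CPM in Gli3FF against 219.0 to 267.5 CPM in wild type. On family sums Rpsa was the only core gene called higher, at 1968 and 1338 CPM in Gli3FF against 468.6 to 921.7 CPM in wild type (log2 1.30, edgeR adjusted p = 0.017), and 0 were lower without Rps2 and Rpl34, with 3.71% of all genes called, 1.62% higher and 2.08% lower. Without Gli3FF replicate 1, 2 members were called and the core median was -0.03, and 7 were called without wild type replicate 1 and 9 without replicate 3. Against wild type replicates 1 to 3, 6 were higher and 8 lower, and against replicates 4 and 5, 6 were higher and 2 lower. With the ribosomal RNA share as a covariate, chosen after seeing the data, 3 were higher and 4 lower, and the core median was 0.25. Over all genes these fits called 1075 of 24043 (replicates 1 to 3), 485 of 24077 (replicates 4 and 5) and 988 of 24383 (covariate).

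Markers of other cell types differed in the Gli3FF libraries as well. The mesothelial sum was 19.35 and 25.61 CPM in Gli3FF against 114.5 to 221.6 CPM in wild type, with 3 of 5 markers called lower and 0 higher. The sum of 6 cholangiocyte markers was 7.571 and 21.19 CPM in Gli3FF against 48.59 to 69.96 CPM in wild type, with 2 called lower and 0 higher, and Epcam and Krt7 were at 0. The smooth muscle and pericyte sum was 186 and 208.7 CPM in Gli3FF against 53.11 to 79.22 CPM in wild type, with 1 of 5 called higher. The fibroblast sum was 42400 and 49250 CPM in Gli3FF against 27070 to 37620 CPM in wild type, with 3 of 8 called higher and 0 lower. The part of these in the result was not tested.

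The values of Rps2 and Rpl34 are a description, and no p is given. Rps2, at the mRNA entry channel of the small subunit, had 25.99 and 24.68 CPM in Gli2FF, 62.87 and 41.5 CPM in Gli3FF and 37.05, 30.23, 28.38 and 35.53 CPM in Gli2FFGli3FF, against 535.6, 601.3, 478.1, 427.5 and 409.0 CPM in wild type. The 8 libraries with floxed Gli2 or Gli3 all lay below 63 CPM, and the other Pdgfra groups had 428.2 to 553.6 CPM (Ctnnb1FF), 380 to 522.8 CPM (SmoFF) and 327 to 473.9 CPM (SmoM2). The log2 changes were -4.27 ± 0.28 in Gli2FF, -3.23 ± 0.26 in Gli3FF and -3.90 ± 0.20 in Gli2FFGli3FF.

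The Rps2 copies did not follow the gene as a block. Rps2-ps13, the X-linked copy printed above, had 59.18 and 73.48 CPM in Gli2FF, 242.6 and 163.9 CPM in Gli3FF and 146.3 to 161.7 CPM in Gli2FFGli3FF, against 9.594 to 16.91 CPM in wild type. Gm45855 had 22.19 and 26.4 CPM in Gli2FF, 82.83 and 53.38 CPM in Gli3FF and 33.72 to 39.07 CPM in Gli2FFGli3FF, against 181.1 to 229.4 CPM in wild type. So 1 copy was higher and another lower in the same libraries, although both are about 99% identical to Rps2 in the coding stretch. The family sum was 340.7 and 292.5 CPM in Gli2FF, 814.8 and 556.7 CPM in Gli3FF and 591.9 to 675.5 CPM in Gli2FFGli3FF, against 1064 to 1503 CPM in wild type, all below the wild type range. Its log2 changes were -1.99 ± 0.25, -0.87 ± 0.23 and -1.01 ± 0.18 in the same order of genotypes. Rps2 itself held 7.238% and 8.188% of the sum in Gli2FF, 7.606% and 7.522% in Gli3FF and 4.546% to 6.047% in Gli2FFGli3FF, against 37.16% to 41.13% in wild type and 27.05% to 41.31% in the remaining groups.

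**Figure D3:**
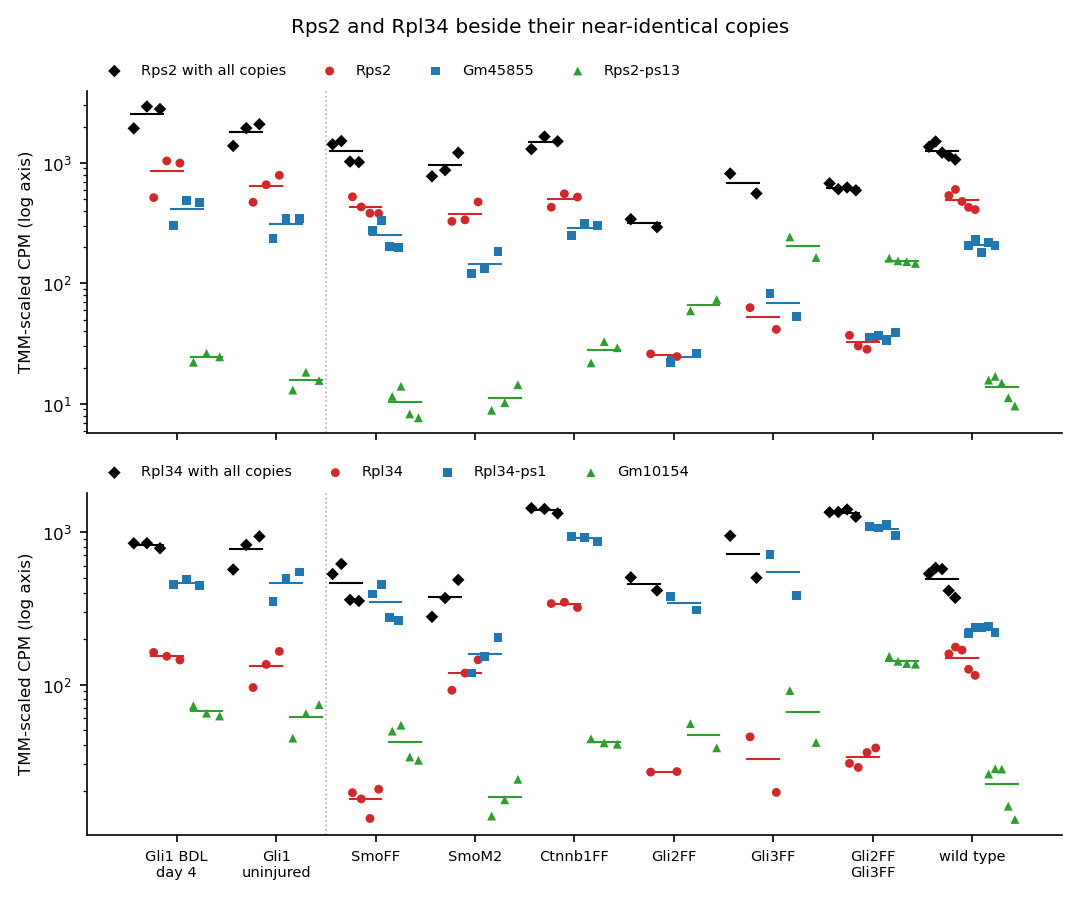
TMM-scaled CPM on a log axis of Rps2 (top) and Rpl34 (bottom) beside their family sums and 2 copies each, 1 point per library by group, with lines at group means. Rps2 lies below 63 CPM in the 8 libraries with floxed Gli2 or Gli3 while Rps2-ps13 lies above its wild type range there, and Rpl34 is low in those libraries and in SmoFF.

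Rpl34, a large-subunit protein, was low in the same 3 genotypes and also in SmoFF. It had 19.57, 17.82, 13.27 and 20.61 CPM in SmoFF, 26.7 and 26.9 CPM in Gli2FF, 45.41 and 19.66 CPM in Gli3FF and 28.64 to 38.38 CPM in Gli2FFGli3FF, against 158.6, 175.9, 168.0, 125.8 and 114.8 CPM in wild type. These 12 libraries lay below every wild type library. SmoM2, with 91.7 to 145.2 CPM, overlapped wild type, and Ctnnb1FF, with 319.2 to 345.9 CPM, lay above it. The log2 changes were -3.06 ± 0.24 in SmoFF, -2.47 ± 0.30 in Gli2FF, -2.19 ± 0.30 in Gli3FF, -2.16 ± 0.23 in Gli2FFGli3FF and 1.17 ± 0.22 in Ctnnb1FF.

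Rpl34-ps1, which differs from Rpl34 by 2 bases, lay above wild type in the 4 genotypes in which Rpl34 was low, and also in Ctnnb1FF, in which Rpl34 was high. It had 860 to 934.9 CPM in Ctnnb1FF, 261 to 451.6 CPM in SmoFF, 375.9 and 307.7 CPM in Gli2FF, 711.9 and 382.9 CPM in Gli3FF and 940.4 to 1112 CPM in Gli2FFGli3FF, against 215.3 to 240.5 CPM in wild type. Rpl34 held 2.954% to 5.754% of its family sum in SmoFF, 5.037% and 6.319% in Gli2FF, 4.753% and 3.969% in Gli3FF and 2.132% to 3.083% in Gli2FFGli3FF. The corresponding share was 24.15% to 24.88% in Ctnnb1FF, 30.73% to 32.39% in SmoM2, 16.45% to 19.6% in Gli1 cells and 30.33% to 31.16% in wild type libraries, which for this gene did not split. The family sums of SmoFF (352.3 to 616.6 CPM) and wild type (369.7 to 580.4 CPM) overlapped, and those of Gli2FFGli3FF (1254 to 1400 CPM) lay above. On family sums the log2 change was -0.09 in SmoFF, -0.11 in Gli2FF, 0.55 in Gli3FF, 1.44 in Gli2FFGli3FF and 1.49 in Ctnnb1FF, so the sign of Rpl34 in Gli3FF and Gli2FFGli3FF depended on whether its copies were counted.

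The share on the own row also differed between libraries for other genes, and for Rpl35 and Rps12 it followed the wild type split. Rpl35 held 10.01% to 10.71% of its family sum in Ctnnb1FF, 5.875% to 9.394% in Gli2FFGli3FF, 11.8% to 13.17% in SmoFF and 34.24% to 35.8% in SmoM2, against 35.44% to 35.78% in wild type replicates 1 to 3 and 12.58% and 12.87% in replicates 4 and 5. In Gli1 cells it was 36.94% to 39.64%. For Rpl35 the libraries thus fell into a set of 34.24% to 39.64% and a set of 5.875% to 13.17%, with wild type in both. Rps12 held 4.115% to 7.566% in Gli2FFGli3FF and 21.97% to 24.48% in SmoM2, against 21.08% to 21.73% in wild type replicates 1 to 3 and 11.38% and 10.62% in replicates 4 and 5. Rpl29 held 52.99% and 52.19% in Gli2FF, 28.98% to 51.03% in Gli2FFGli3FF, 4.639% and 4.503% in Gli3FF and 4.076% to 4.424% in Ctnnb1FF, against 26.96%, 13.44%, 21.78%, 27.67% and 8.163% in wild type replicates 1 to 5, which did not follow that split.

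**Figure D4:**
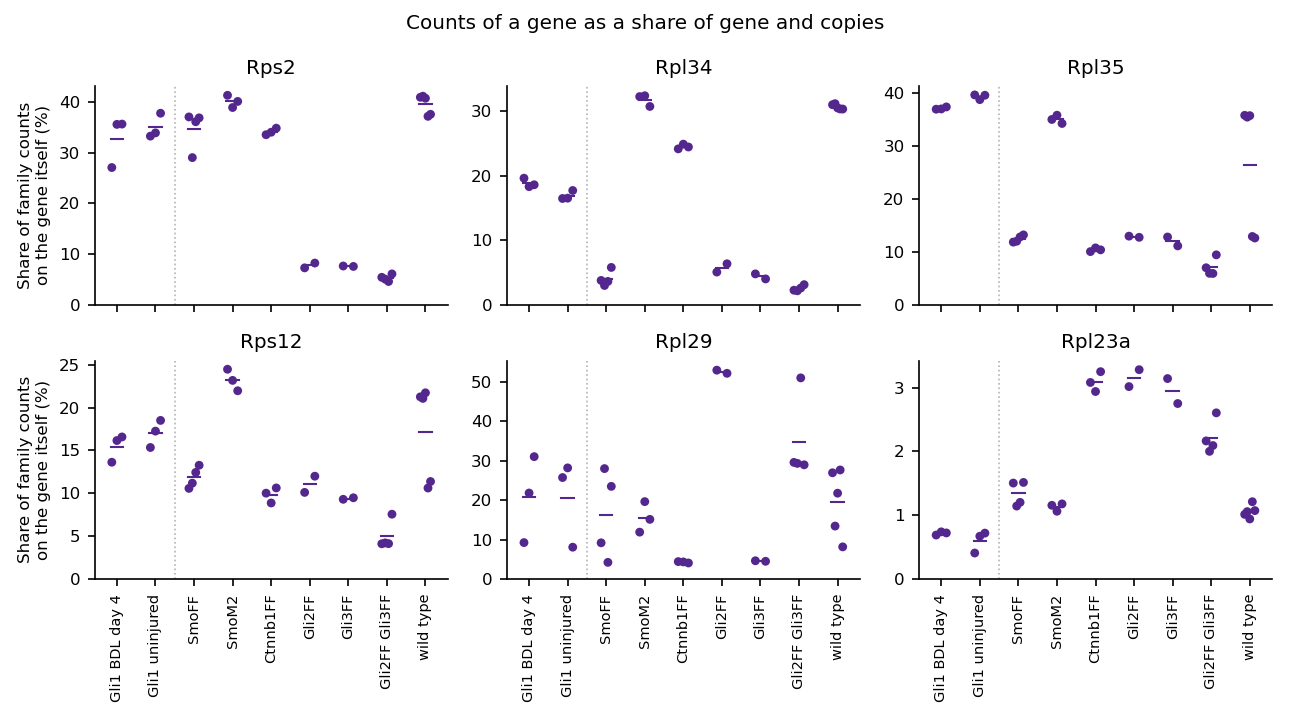
Percent of each family sum that lies on the gene's own row for 6 genes, 1 point per library by group, with lines at group means. Rps2 is under 9% in the 8 libraries with floxed Gli2 or Gli3 and between 27.05% and 41.31% in the others, and Rpl35 splits the wild type libraries into sets of 35.44% to 35.78% and of 12.58% and 12.87%.

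In SmoFF cells 0 of 93 members were higher and 6 were lower than in wild type, where 1.55% of all genes tested were called, 0.287% higher and 1.26% lower. Without Rps2 and Rpl34 there were 5 of 91, namely Rps12, Rps27, Rpl3, Rpl9 and Rpl35, and the core median was -0.34 beside 0.02 over all genes. Rpl3, which reaches the peptidyl transferase centre, had 108.4, 92.16, 81.07 and 72.62 CPM in SmoFF, against 188.9, 209.2, 189.6, 143.7 and 121.3 CPM in wild type. The groups did not overlap (log2 -0.95 ± 0.19, edgeR adjusted p = 0.014), and the family sum gave -0.34 (edgeR adjusted p = 0.462). Rpl35 had 36.17, 44.65, 30.87 and 26.14 CPM in SmoFF (log2 -1.81, edgeR adjusted p = 0.0371), close to wild type replicates 4 and 5 (33.39 and 29.46 CPM) and far below replicates 1 to 3 (177.5 to 186.4 CPM). Rps12 was at 49.33, 36.24, 25.81 and 31.23 CPM in SmoFF beside 39.8 and 36.04 CPM in wild type replicates 4 and 5. On family sums edgeR called 0 core genes, where 0.738% of all genes were called, 0.212% higher and 0.526% lower. At an unadjusted p under 0.05, 17 core genes were lower and 0 higher, and the share of all genes at that looser threshold is not given here. DESeq2 on own rows called 16 members, beside 1312 of 39351 genes. Leaving out SmoFF replicate 1 or 2 left 3 calls, SmoFF replicate 3 or 4 left 1, any 1 of wild type replicates 1 to 3 left 2, and without wild type replicate 4 or 5 there were 14 and 15. Against wild type replicates 1 to 3, 27 members were lower, and against replicates 4 and 5, 1 was lower and the core median was 0.04. With the ribosomal RNA share as a covariate, chosen after seeing the data, 2 were lower. Over all genes these fits called 1122 of 24043 (replicates 1 to 3), 19 of 24077 (replicates 4 and 5) and 129 of 24383 (covariate). The fibroblast sum was 18910 to 20640 CPM in SmoFF against 27070 to 37620 CPM in wild type, with 4 of 8 markers called lower and 0 higher, and the mesothelial sum was 343.3 to 627.7 CPM against 114.5 to 221.6 CPM, with 0 of 5 called. The part of these in the result was not tested.

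In SmoM2 cells edgeR called 0 of 93 members, where 0.205% of all genes tested were called, 0.127% higher and 0.0779% lower. DESeq2 called 1 member, beside 290 of 39351 genes. At an unadjusted p under 0.05, 24 members were lower and 0 higher, and the share of all genes at that looser threshold is not given here. The SmoM2 libraries carried the target genes of Hedgehog signalling at high levels, with Ptch1 at 247.5 to 384.9 CPM in SmoM2 against 20.56 to 36.99 CPM in wild type. The core median was -0.37 beside 0.02 over all genes. On family sums all 77 fitted changes lay between -0.58 and -0.14, and edgeR called 0, with 15 core genes lower and 0 higher at an unadjusted p under 0.05. In that fit 0.208% of all genes were called at an adjusted p under 0.05, 0.127% higher and 0.0805% lower. The share of all genes at the unadjusted threshold is not given here either. Rps15a had the lowest own-row value, at 62.75, 69.37 and 112.2 CPM in SmoM2, against 144.1, 152.3, 147.9, 228.4 and 205.9 CPM in wild type (log2 -1.11, edgeR adjusted p = 0.0548). Rps10 had 14.29, 18.1 and 20.6 CPM in SmoM2 against 21.86 to 55.54 CPM in wild type, with all 3 libraries below the wild type range. Without SmoM2 replicate 3, 1 member was called lower. The core median was -0.60 against wild type replicates 1 to 3 and -0.02 against replicates 4 and 5. The smooth muscle and pericyte sum was 262.9 to 275 CPM in SmoM2 against 53.11 to 79.22 CPM in wild type, with 1 of 5 called higher, and its part in these values was not tested.

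After bile duct ligation 6 of 89 members were higher and 0 were lower than in uninjured mice, where 13.6% of all genes tested were called, 7.77% higher and 5.80% lower. The share of members called higher was near that of all genes. The core median was 0.24 beside 0.07 over all genes. Rps27l, a paralogue of Rps27 that p53 induces in human cells, had 344.3, 266.3 and 247.4 CPM after ligation, against 113.0, 145.6 and 122.0 CPM in uninjured mice. All 3 ligated mice lay above the uninjured ones (log2 1.17 ± 0.19, edgeR adjusted p = 0.0157). Rpl31, near the exit tunnel, had 74.74, 75.55 and 71.53 CPM after ligation, against 30.94, 39.29 and 35.35 CPM in uninjured mice (log2 1.07 ± 0.18, edgeR adjusted p = 0.0155). Rpl41 had 1392, 1445 and 1318 CPM after ligation, against 644.2, 918.2 and 911.9 CPM in uninjured mice (log2 0.75, edgeR adjusted p = 0.0407).

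The pseudogene rows Rps3a3 (log2 1.44, edgeR adjusted p = 0.012) and Rps4l (log2 1.72, edgeR adjusted p = 0.0421) were also called. Rps3a3 had 377.4, 341.2 and 300.3 CPM after ligation against 92.96, 144.6 and 139.3 CPM in uninjured mice, while its parent Rps3a1 had 354.5, 327.6 and 303.2 CPM after ligation against 323.9, 518.1 and 507.0 CPM in uninjured mice (log2 -0.45, not called). Rpl5 had 369.1 CPM in 1 ligated mouse and 134.0 and 132.8 CPM in the other two, against 77.1 to 107.9 CPM in uninjured mice, and was not called. On family sums 3 of 77 core genes were higher and 0 lower, Rpl31 (0.75) and Rpl12 (0.85) among them. In that fit 14.0% of all genes were called, 8.18% higher and 5.85% lower. The share of core genes called higher was thus below that of all genes. Without BDL replicate 2 or without BDL replicate 3 edgeR called 0 members, without BDL replicate 1 it called 2, and without uninjured replicate 1 it called 11, of which 6 were lower. Over all genes these fits called 420 of 17911, 377 of 18159, 882 of 18313 and 2383 of 18546, in that order. The sum of 5 smooth muscle and pericyte markers was 3793 to 4543 CPM after ligation against 57.88 to 115.7 CPM in uninjured mice, with 3 called higher and 0 lower. The fibroblast sum was 69430 to 72910 CPM after ligation against 34250 to 40590 CPM in uninjured mice, with 5 of 8 called higher and 2 lower. The mesothelial sum was 57.44 to 83.43 CPM after ligation against 219.7 to 721 CPM in uninjured mice, with 4 of 5 called lower, and the sum of 7 immune markers was 31.98 to 73.27 CPM against 8.727 to 23.4 CPM, with 0 called. Their part in the result was not tested. With the ribosomal RNA share as a covariate, chosen after seeing the data, 1 member was called, beside 559 of 17150 genes.

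Levels of paralogue pairs were compared per length. Rps27l made up 60.3% to 61.7% of the TPM of Rps27 and Rps27l after ligation against 28.3% to 35.6% in uninjured mice, since Rps27 itself was not higher (132.0, 99.23 and 97.85 CPM after ligation against 122.7, 159.4 and 185.1 CPM in uninjured mice). In Gli2FFGli3FF cells both genes rose, and Rps27l was at 426.5, 397.7, 347.7 and 297.9 CPM against 57.59 to 73.66 CPM in wild type (log2 2.49, edgeR adjusted p = 8.58e-07). In Ctnnb1FF it was at 374.5, 338.0 and 248.5 CPM (log2 2.30 ± 0.27, edgeR adjusted p = 3.89e-06), and its share of the pair, 25.9% to 38.4%, overlapped the 30.6% to 42.7% of wild type. The near-identical Rps27rt was not part of this share. Its median was 8377 TPM after ligation and 12790 TPM in uninjured mice. Rps27l had 985.1 and 454.3 TPM, and Rps27 had 611.9 and 883.4 TPM, in the same order. Rps27l was thus the larger part of the pair after ligation only with Rps27rt left out.

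Rpl22l1, the paralogue that can replace Rpl22 in the ribosome, again divided the wild type libraries, at 52.1% to 53.2% of the pair in replicates 1 to 3 and 31.7% and 34.8% in replicates 4 and 5. It was 31.9% to 35.3% in Ctnnb1FF, 28.5% to 34.6% in Gli2FFGli3FF, 27.6% to 35.8% in SmoFF and 36.9% and 32.7% in Gli2FF, close to replicates 4 and 5, and 54.6% to 58.6% in SmoM2, above all 5. Gli3FF, at 40.3% and 43.7%, lay between the wild type sets. In Gli1 cells it was 57.0% to 59.1% after ligation against 59.3% to 64.0% in uninjured mice. The Rpl22 row of this pair split the wild type libraries too. It held 70.84% to 72.48% of its family sum in replicates 1 to 3 and 90.18% and 89.01% in replicates 4 and 5. The corresponding share was 71.56% to 72.84% in SmoM2, 87.46% to 88.43% in SmoFF and 93.92% to 94.52% in Ctnnb1FF. The copies of Rpl22 were not counted in the pair. Rps4l made up 18.4% to 23.2% of the pair with Rps4x after ligation against 2.33% to 8.05% in uninjured mice. Rpl7l1 stayed between 3.87% and 11.5% of its pair with Rpl7 in all groups. Rpl39l, which replaces Rpl39 in male germ cells, had at most 47 counts in any library, and Rps12l1 had 0 in every one.

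**Figure D5:**
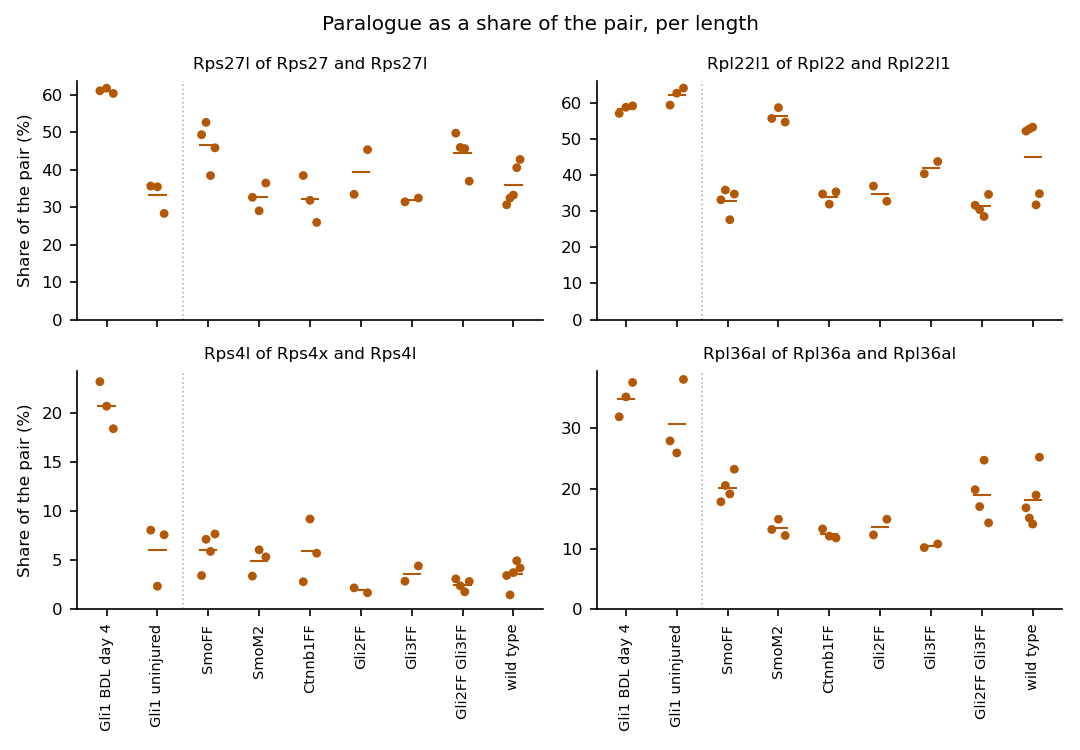
Percent of the summed TPM of each of 4 gene pairs that lies on the paralogue, 1 point per library by group, with lines at group means. Rps27l is at 60.3% to 61.7% after bile duct ligation and at most 35.6% in uninjured mice, with the near-identical Rps27rt not counted. The Rpl22l1 share separates wild type replicates 1 to 3 from replicates 4 and 5, as does the share of Rpl22 in its family sum.

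The other genes of the translation machinery were read from lists that do not overlap the members, and their counts stand beside the share of all genes called. In Ctnnb1FF that share was 19.9% (8.04% higher and 11.9% lower), and 12 of 35 translation factors were higher and 5 lower, among them Eif3f, a subunit of the initiation factor eIF3 (log2 -1.84, edgeR adjusted p = 6.71e-05), and Eif3k, another of its subunits (log2 1.32). Against the same wild type libraries Eif3f was also called lower in Gli2FF (log2 -2.395), Gli3FF (log2 -2.255) and Gli2FFGli3FF (log2 -1.608). In Ctnnb1FF 6 of 12 other ribosome and TOP mRNA genes were higher and 0 lower, including the host gene of small nucleolar RNAs Gas5 (log2 1.17) and Fau (log2 1.15). Of 49 ribosome biogenesis genes, 8 were higher and 4 lower, with a median log2 change of 0.002 beside -0.612 over all genes. Of 27 regulators of ribosomal protein synthesis, 5 were higher and 3 lower, and Mtor, the kinase that controls TOP mRNA translation, was at 7.218 ± 0.179 CPM in Ctnnb1FF against 27.24 ± 5.27 CPM in wild type (SD, n = 3 and 5, log2 -1.92, edgeR adjusted p = 3.97e-05).

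Gene classes outside the cytosolic ribosome moved too. In Ctnnb1FF 46 of 77 mitochondrial ribosomal protein genes were higher and 2 lower (median log2 change 1.08), and 52 of 59 oxidative phosphorylation genes were higher and 1 lower (median 1.60). Cox6c, a subunit of cytochrome c oxidase, was at 534.7 ± 89.8 CPM in Ctnnb1FF and 438.3 ± 57.4 CPM in Gli2FFGli3FF, against 83.17 ± 11.1 CPM in wild type (SD, n = 3, 4 and 5). In Gli2FFGli3FF, where 7.60% of all genes were called higher and 9.56% lower, 33 mitochondrial ribosomal protein genes were higher and 0 lower (median 0.60), 45 oxidative phosphorylation genes were higher and 3 lower (median 1.19), and 361 of the 1193 short genes were higher and 52 lower (median 0.58). These classes were higher beside the cytosolic ribosomal protein genes in both genotypes.

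In Gli2FF, where 2.58% of all genes were called higher and 3.26% lower, 1 of 35 translation factors was higher and 8 were lower. Eef1a1, the elongation factor that brings aminoacyl-tRNA and itself a TOP mRNA, was at 1242 ± 445 CPM in Gli2FF against 3013 ± 498 CPM in wild type (SD, n = 2 and 5, log2 -1.28, edgeR adjusted p = 0.00182). Larp1 was at 52.54 ± 11.9 CPM in Gli2FF against 12.85 ± 2.03 CPM in wild type (SD, n = 2 and 5, log2 2.03, edgeR adjusted p = 1.77e-04). It was also called higher in Gli2FFGli3FF (log2 1.125, edgeR adjusted p = 0.00264), where more members were higher than lower. The part of Larp1 in the values of the members was not tested in either genotype. Among the short genes in Gli2FF 9 were higher and 48 lower, with a median of -0.19. In SmoM2 0 genes of these lists were called by edgeR outside 3 of the short genes. After ligation, where 7.77% of all genes were called higher and 5.80% lower, 10 of 35 translation factors were higher and 2 lower, with Eif4a1, the helicase of cap-dependent initiation, at 540.9 ± 34.8 CPM against 263.7 ± 22.5 CPM in uninjured mice (SD, n = 3 each, log2 1.04, edgeR adjusted p = 0.00915). Rack1, a small-subunit protein outside the naming pattern, was at 764.2 ± 36.1 CPM after ligation against 400.2 ± 51.4 CPM in uninjured mice (log2 0.93, edgeR adjusted p = 0.016). Of the mitochondrial ribosomal protein genes 6 of 77 were higher and 0 lower, a share near that of all genes called higher, and of the oxidative phosphorylation genes 13 of 59 were higher and 0 lower.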

How the data were processed

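Per the labels' protocols, ducts were digested, about 1000 cells of each mouse were sorted by flow cytometry, and full-length cDNA libraries were made by a Smart-seq protocol. The deposited files hold the authors' unnormalised counts per gene, and the submitters' processing notes name mm10. Aligner, counter, annotation and strand setting are not stated there, so reads of near-identical copies may be split in ways that cannot be checked. Under R 4.3.3, edgeR 4.0.16 filtered (filterByExpr), scaled (TMM) and fitted the counts by quasi-likelihood (glmQLFit, glmQLFTest), the 6 Gli1 libraries alone and the 23 Pdgfra libraries in 1 fit, and p-values were adjusted by Benjamini-Hochberg over all genes tested. The test was checked on simulated counts. CPM are TMM-scaled. Copies were found with blastn 2.17.0 on GENCODE M21 transcripts, and TPM used their lengths. No 2 libraries of a group agreed within counting noise. DESeq2 1.42.0 was an alternative. The members and lists were chosen with earlier results of these data known. Genes are named if listed in the rule, in a paralogue pair, among the 6 largest called changes each way, among the 2 highest and 2 lowest core changes, among the 5 highest or lowest in TPM, or if they are stalk proteins, Rpsa, Rps6, Rps27a, Rpl5 or Rpl11. Rpl35, Rps12, Rpl8 and Rpl29 were followed further after their values or copies were seen. Some genes that the rule names are not reported here.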

Additional observations from a re-analysis of the deposited data

How the results depend on the processing

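Called members of Ctnnb1FF stayed within 1.5 times the 68 reported under all settings run, and leaving out 1 library at a time gave 63 to 74 there, 40 to 46 in Gli2FFGli3FF, 2 to 20 in Gli3FF, 2 to 25 in Gli2FF, 1 to 15 in SmoFF, 0 to 1 in SmoM2 and 0 to 11 after ligation. The core medians then ran from 1.10 to 1.42 in Ctnnb1FF, 0.39 to 0.64 in Gli2FFGli3FF, -0.026 to 0.683 in Gli3FF, -0.71 to -0.44 in Gli2FF, -0.44 to -0.23 in SmoFF, -0.60 to -0.23 in SmoM2 and 0.10 to 0.39 after ligation.

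DESeq2 called 12 members after ligation, 16 in SmoFF and 1 in SmoM2. Over all genes it called 4353 of 32531 after ligation, and 1312 in SmoFF and 290 in SmoM2 of 39351. Without a filter on low counts 16 were called in SmoFF and 1 in SmoM2, beside 913 and 394 of 39351 genes. Library sizes without the rRNA locus gave 1 in SmoM2, beside 52 of 24012 genes. Fitting only the groups compared gave 1 in SmoFF, beside 151 of 17713 genes. Summing rows named -ps gave 2 in SmoFF, beside 306 of 24139 genes. Summing all copies, chosen after seeing the data, gave 0 in SmoFF and 2 in Gli3FF, beside 174 and 874 of 23588 genes. The rRNA share as a covariate, also added later, gave 1 after ligation, 2 in SmoFF, 6 in Gli2FF, 7 in Gli3FF and 29 in Gli2FFGli3FF, where the core median was 0.25, against 1.01 with -ps rows and 0.95 with all copies summed. With wild type replicates 1 to 3 as controls, a split known from earlier results of these data, 27 were called in SmoFF and 36 in Gli2FF. Over all genes 1122 and 1887 of 24043 were called there. With replicates 4 and 5 as controls the calls were 1 in SmoFF, 4 in SmoM2, 2 in Gli2FF and 8 in Gli3FF. Over all genes 19, 186, 200 and 485 of 24077 were called there, in the same order. The core medians against replicates 4 and 5 were 0.042 in SmoFF, -0.019 in SmoM2, 1.56 in Ctnnb1FF, -0.20 in Gli2FF, 0.78 in Gli3FF and 0.91 in Gli2FFGli3FF. The cause was not tested. RLE scaling moved the median of all genes by -0.04 to 0.09.

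Replicate numbers did not pair the libraries (correlations of deviations -0.26 to 0.17). With the replicate number as a block, 0 members were called after ligation, 13 in SmoFF, 8 in Gli3FF, 22 in Gli2FF, 40 in Gli2FFGli3FF and 60 in Ctnnb1FF. Over all genes 428 of 17150 were called after ligation. The Pdgfra groups had 498, 748, 1282, 2872 and 3261 of 24383 genes called, in the order given.

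With all counts as the denominator the median core share was 3.77% in Ctnnb1FF, 2.09% in Gli2FFGli3FF, 1.95% in Gli2FF, 2.2% in Gli3FF, 2.05% in SmoFF and 2.27% in wild type. The Gli2FFGli3FF median thus lay below that of wild type, but the libraries overlapped (1.773% to 2.596% against 2.067% to 2.472%). Over protein-coding counts it was 6.73% in Ctnnb1FF, 5.01% in Gli2FFGli3FF, 2.5% in Gli2FF, 3.36% in wild type and 3.15% after ligation. With -ps rows added it was 9.05% in Ctnnb1FF, 7.55% in Gli2FFGli3FF, 3.75% in Gli2FF, 5.78% in Gli3FF, 4.39% in SmoFF, 3.91% in SmoM2, 4.82% in wild type, 4.46% after ligation and 4.41% in uninjured mice.

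Of 1312 values of named genes under other settings, 1096 kept direction and side of the threshold, 189 lost the call, 10 gained it and 17 turned sign. With copies summed the log2 change was 1.20 for Rpl29 in Ctnnb1FF, -0.62 for Rpl23a and -0.89 for Rpl29 in Gli2FF, 0.55 for Rpl34 in Gli3FF, and 1.09 for Rpl30, 1.44 for Rpl34 and 0.23 for Rpl35 in Gli2FFGli3FF. With -ps rows summed it was 0.88 for Rps12 in Ctnnb1FF, 0.037 for Rpl34 in Gli2FF, 0.69 for Rpl34 in Gli3FF, and 0.87 for Rpl30, 1.57 for Rpl34 and 0.33 for Rps18 in Gli2FFGli3FF. Against wild type replicates 4 and 5 it was 0.13 for Rpl35 in SmoFF, 1.12 for Rps12 in Ctnnb1FF, 0.12 for Rpl35 and 0 for Rps23rg1 in Gli2FFGli3FF. The effect of depth was not tested, and the rows of Rpl39l, Rpl3l, Rpl10l and Rps23rg1 were at or near 0 in most libraries.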
